A study of Mus musculus with 11 samples.

Results

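A group of 4 genes of the reelin pathway was described across embryonic mouse motor neurons: Dab1, Reln, Vldlr and Lrp8. Dab1 was chosen because its values were low in phrenic arrays, and the other members were chosen as its ligand and receptors. Every probe set whose platform annotation gives one of these symbols alone was taken, which gave 16 of 45037 probe sets and 4 of 18193 genes (Dab1 5, Reln 2, Vldlr 6 and Lrp8 3 probe sets). Affymetrix arrays were hybridised with RNA of sorted motor neurons in 3 cell types. There were 4 arrays of phrenic motor neurons, 4 of GFP-only motor neurons from segments C3-C5, and 3 of radial motor neurons of the lateral motor column (LMC radial). All groups came from C57/BL6 embryos that carried Hb9::GFP, a reporter in which the motor neuron promoter Hb9 drives GFP. Trunk explants took up dextran-tetramethylrhodamine through a nerve, the phrenic nerve for the diaphragm or the radial nerve for forelimb extensor muscles, and motor neurons were then sorted from dissociated cord. The titles of the GFP-only samples name no nerve, and do not say which motor neurons of C3-C5 they hold. Labelling through a nerve and cell type therefore cannot be told apart in comparisons with C3-C5 GFP-only arrays. The labels do not give the embryonic age, the sort gates, the litter of a replicate or the segments of the LMC radial cells, so cell type and segment cannot be told apart in comparisons with LMC radial arrays. They do not say that replicates came from separate embryos either, and p-values then measure only the spread between these arrays.

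Reelin is a large secreted protein that guides where migrating neurons settle. It binds the lipoprotein receptors Vldlr and Lrp8 (also called ApoER2), and these carry the cytoplasmic adaptor Dab1. Binding leads Src family kinases to phosphorylate Dab1, which recruits further adaptors that act on the cytoskeleton and on adhesion, and phosphorylated Dab1 is then degraded through Cul5 and Socs proteins. In the spinal cord the pathway takes part in placing motor neurons. In limb-innervating motor neurons it has been linked to Foxp1, a factor needed for the lateral motor column, and Lhx1, a factor of its lateral division, while Isl1 marks the medial division and many other motor neurons.

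The windows of 250 bases before the annotated starts of Dab1 and Reln are shown because these are the members whose levels differed most between cell types. They are RefSeq sequences of build GRCm38.p6, read 5′ to 3′ on the gene's strand with each CpG in capitals. Dab1 has 2 annotated starts, 748 kb apart, at chr4:103619250-103619499 (plus strand) for the upstream window and chr4:104367288-104367537 (plus strand) for the downstream one. The Reln window is chr5:22344706-22344955 (minus strand).
Dab1 upstream: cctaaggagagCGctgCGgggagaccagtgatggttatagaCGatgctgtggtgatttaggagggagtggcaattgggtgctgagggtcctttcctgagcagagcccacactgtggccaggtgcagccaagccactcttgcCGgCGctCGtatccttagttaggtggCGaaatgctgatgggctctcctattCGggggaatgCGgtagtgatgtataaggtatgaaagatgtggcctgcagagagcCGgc
Dab1 downstream: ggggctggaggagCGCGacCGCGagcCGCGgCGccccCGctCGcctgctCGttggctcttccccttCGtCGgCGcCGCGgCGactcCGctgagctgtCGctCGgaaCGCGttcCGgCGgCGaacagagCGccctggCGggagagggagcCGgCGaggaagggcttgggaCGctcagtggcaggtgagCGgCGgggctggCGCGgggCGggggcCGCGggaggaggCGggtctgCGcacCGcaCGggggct
Reln: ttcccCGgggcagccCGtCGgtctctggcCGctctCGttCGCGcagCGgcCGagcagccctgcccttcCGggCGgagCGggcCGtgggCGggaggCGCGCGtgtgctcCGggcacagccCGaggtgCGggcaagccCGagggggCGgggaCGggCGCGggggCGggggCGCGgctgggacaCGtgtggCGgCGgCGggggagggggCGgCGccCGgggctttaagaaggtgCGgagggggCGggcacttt
The upstream Dab1 window holds 10 CpG at 56.4% GC, more CpG than 62.2% of 32851 windows of this length. The downstream window holds 40 CpG at 78.0% GC, more than 98.7% of windows, and the Reln window holds 37 CpG at 80.0% GC, more than 97.8%, where the median window has 6 CpG at 52.4% GC. All 4 members matched the table, with 8 windows. On both strands the homeodomain core TAATTA was found in 1 Vldlr window and in 4.84% of all windows. The forkhead motif TGTTTAC was found in no member window and in 3.17% of all windows. The GC box GGGCGG, found in 32.7% of windows, occurs 6 times before Reln, and once each before the downstream Dab1 start and 1 Vldlr start. The E-box CACGTG, in 6.02% of windows, occurs once before Reln. These matches only describe the letters. The sources used here do not place the array's probes on the gene, so no probe set was assigned to a Dab1 start.

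Values are log2 RMA values, so a difference of 1 is a doubling, and probe sets differ in how well they bind, so levels were compared within a probe set only. The array medians lay between 4.48 and 4.63, and a mean below 5 was read as close to them. Motor neuron marker list means were 8.76 to 9.05 in phrenic, 8.90 to 9.13 in C3-C5 GFP-only and 8.25 to 8.38 in LMC radial arrays. Not every gene of the list was bright. In LMC radial arrays Chat, Slc5a7 and Ache had means of 4.92, 4.89 and 4.98, under 5. The other genes of the list had means above 5 in each cell type. Of 10 motor neuron genes 4 passed as lower in LMC radial than in C3-C5 GFP-only arrays, against 2.03% of all genes. Phrenic replicate 4 stood apart. It correlated with the other phrenic arrays at r = 0.965 to 0.967 over all tested probe sets, against 0.976 to 0.985 among those. It also had the highest means of the phrenic arrays for progenitor and glial genes (7.53 against 6.02 to 6.55), cell cycle genes (7.97 against 6.22 to 6.89) and spinal interneuron genes (5.34 against 4.27 to 4.72). Results are therefore also given without it where they change. The phrenic group as a whole also differed in such genes. All 4 phrenic arrays lay above all C3-C5 GFP-only arrays for the cell cycle list mean (6.22 to 7.97 against 5.53 to 6.00) and for the mesenchyme and cartilage list mean (5.46 to 7.09 against 4.78 to 5.13), and LMC radial arrays read 5.68 to 6.49 and 5.33 to 6.31. In phrenic minus C3-C5 GFP-only, 1 of 9 cell cycle genes and 2 of 14 mesenchyme and cartilage genes passed as higher, against 1.43% of all genes. The part of such cells in the phrenic differences of Dab1, Foxp1 and Lhx1 was not tested.

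Dab1, the adaptor that carries the reelin signal inside the cell, was lowest in phrenic, intermediate in C3-C5 GFP-only and highest in LMC radial arrays on 5 of 5 probe sets. The low phrenic level was the reason for choosing Dab1, so comparisons with phrenic arrays are given without a test. On 1427308_at the phrenic arrays read 6.82, 7.19, 6.75 and 7.13, the C3-C5 GFP-only arrays 9.09, 9.19, 8.98 and 9.28, and the LMC radial arrays 9.61, 9.79 and 9.99. No array of one type overlapped another type, and the phrenic mean of 6.97 ± 0.22 (SD, n = 4) was 4.48-fold below the C3-C5 GFP-only mean of 9.14 ± 0.13 (SD, n = 4) and 7.08-fold below the LMC radial mean of 9.80 ± 0.19 (SD, n = 3). In these bulk samples, fewer cells with the transcript and less of it per cell cannot be told apart.

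The brightest Dab1 probe set, 1435578_s_at, read 10.58, 10.36, 10.55 and 10.98 in phrenic arrays. It read 11.18, 11.18, 11.26 and 11.41 in C3-C5 GFP-only arrays, and 11.69, 11.57 and 11.74 in LMC radial arrays. The order was the same with smaller steps: the phrenic mean of 10.61 ± 0.26 (SD, n = 4) lay 0.64 below the C3-C5 GFP-only mean of 11.26 ± 0.11 (SD, n = 4), and 1.05 below the LMC radial mean of 11.67 ± 0.08 (SD, n = 3). Its companion 1435577_at, built on the same sequence record, had means of 9.78 ± 0.37, 10.49 ± 0.13 and 10.99 ± 0.02 (SD) in the same order. Here C3-C5 GFP-only replicates 1 to 3 share 1 value, 10.43, and replicate 4 read 10.68. Values shared by 2 or more arrays, which median polish in RMA can give, occur in 39.3% of probe sets and can make a spread look small.

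Probe set 1427307_a_at, built on the same record as 1427308_at, read 7.498, 7.01, 6.36 and 7.04 in phrenic arrays, 8.63, 8.28, 8.29 and 8.37 in C3-C5 GFP-only arrays, and 9.32, 9.46 and 9.01 in LMC radial arrays. The dimmest probe set, 1421100_a_at, read 5.02, 5.53, 3.64 and 4.27 in phrenic arrays, 7.26, 7.10, 6.82 and 6.52 in C3-C5 GFP-only arrays, and 8.27, 8.29 and 8.94 in LMC radial arrays. With values under 5 raised to 5, its phrenic level was at least 3.46-fold lower than in C3-C5 GFP-only and at least 10.3-fold lower than in LMC radial arrays. The groups overlapped in neither probe set. Over the 5 probe sets the phrenic minus C3-C5 GFP-only difference ran from -2.31 to -0.64 (median -1.42), and the phrenic minus LMC radial difference from -3.89 to -1.05 (median -2.29). Over all tested probe sets the arrays did not overlap for 7.49% in the former comparison and 18.7% in the latter, and an adjusted p under 0.05 was reached by 1.96% and 6.61%. Without phrenic replicate 4 the 1435578_s_at differences were -0.77 and -1.18, and those of 1427308_at -2.22 and -2.88.

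**Figure D1:**
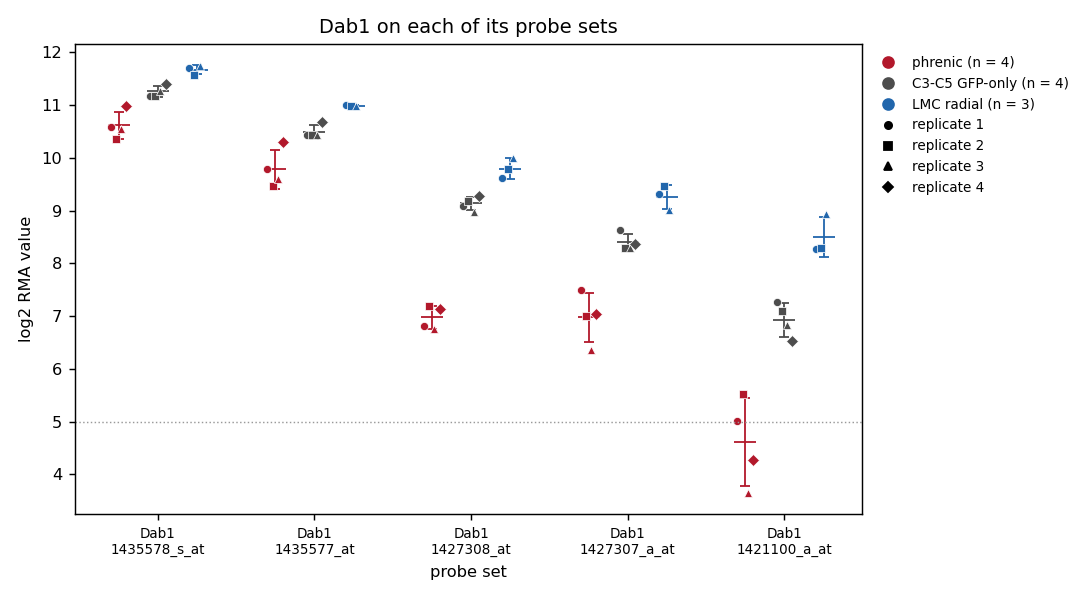
Log2 RMA value (vertical axis) of each array on the 5 Dab1 probe sets (horizontal axis). Points are arrays, coloured by cell type and shaped by replicate number, bars are the mean ± SD, and the dotted line marks 5. On each probe set the phrenic arrays lie lowest and the LMC radial arrays highest, with no overlap.

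The comparison of LMC radial with C3-C5 GFP-only arrays was not used in choosing Dab1, and was tested. Dab1 was higher in LMC radial arrays on 5 of 5 probe sets, and the arrays did not overlap on any of them, against 23.1% of all tested probe sets. The difference passed on 2 of 5 probe sets, with limma and Benjamini-Hochberg adjustment over all probe sets, where 3.76% of all probe sets passed in either direction and 1.88% as higher. These were 1427308_at, higher by 0.66 ± 0.15 (SE, adjusted p = 0.0333), and 1421100_a_at, higher by 1.58 ± 0.39 (SE, adjusted p = 0.0498). On 1427307_a_at the difference was 0.87 ± 0.23 (SE, adjusted p = 0.0635), on 1435577_at 0.50 ± 0.18 (SE, adjusted p = 0.148) and on 1435578_s_at 0.41 ± 0.14 (SE, adjusted p = 0.143), which did not pass. The 5 probe sets share a gene and 2 pairs share a sequence record, so they are not 5 independent measurements.

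All 5 differences stayed above 0 in every setting tried, and the number that passed ran from 0 to 5. With the replicate number as a block 4 passed: 1427308_at kept its call, 1435578_s_at (adjusted p = 0.045), 1435577_at (0.0392) and 1427307_a_at (0.0372) gained one, and 1421100_a_at lost its call (0.0748). LMC radial and C3-C5 GFP-only arrays of the same number did not deviate together (r = 0.043, 0.050 and -0.083). The block thus has little basis in this comparison. With array weights 5 Dab1 probe sets passed, and with arrays of these 2 types only 4 passed. The share of all probe sets that passed with the block, the weights or 2 types is not given here. More pathway genes also passed in this comparison with weights or 2 types. None of the 5 Dab1 probe sets passed when C3-C5 GFP-only replicate 1, 2 or 3, or LMC radial replicate 1, 2 or 3, was left out. Of them, 1 passed without C3-C5 GFP-only replicate 4, and 3 passed without phrenic replicate 3 or phrenic replicate 4. Without the latter, 5.89% of all probe sets passed in this comparison. Over the arrays left out in turn the adjusted p reached 0.118 on 1427308_at and 0.163 on 1421100_a_at. Actb control probe sets at the 3′ and 5′ ends differ more where RNA is degraded, and their gap was 1.71 ± 0.48 (SD, n = 4) for phrenic, 1.53 ± 0.43 (SD, n = 4) for C3-C5 GFP-only and 1.06 ± 0.06 (SD, n = 3) for LMC radial arrays. The group means of the gap ran in the opposite order to those of Dab1, also between phrenic and LMC radial arrays. With the gap as a covariate the phrenic differences on 1435578_s_at were -0.65 from C3-C5 GFP-only and -1.06 from LMC radial arrays, and -0.64 and -1.05 without it. Phrenic differences of the other Dab1 probe sets are not given with the covariate. The part of RNA quality in the phrenic differences was not tested. With the Actb gap as a covariate the 5 LMC radial minus C3-C5 GFP-only differences remained above 0 and 0 of them passed. Likewise 0 passed among the 7 arrays with a higher 25th percentile of all values (the higher arrays), which hold 2 C3-C5 GFP-only arrays. The other 4 (the lower arrays) hold no LMC radial array. In comparisons with LMC radial arrays the array set is thus partly confounded with cell type, and the full fit takes no account of it.

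Reln, the ligand, was highest in C3-C5 GFP-only arrays on its bright probe set 1449465_at. The phrenic arrays read 7.18, 6.95, 7.06 and 8.90, the C3-C5 GFP-only arrays 9.25, 8.84, 8.65 and 8.50, and the LMC radial arrays 7.42, 7.38 and 6.96. The LMC radial arrays lay below all C3-C5 GFP-only arrays, while phrenic replicate 4 lay within the C3-C5 GFP-only range and the other 3 phrenic arrays below it. Over all 11 arrays no Reln comparison passed: LMC radial minus C3-C5 GFP-only was -1.56 ± 0.41 (SE, adjusted p = 0.0621), phrenic minus C3-C5 GFP-only -1.29 ± 0.38 (SE, adjusted p = 0.135), and phrenic minus LMC radial 0.27 ± 0.41 (SE, adjusted p = 0.742, 95% interval -0.63 to 1.17). Of the 6 pairwise tests of both Reln probe sets, limma passed 0, and 3 had an unadjusted p under 0.05. Over all probe sets 1.96% passed in phrenic minus C3-C5 GFP-only, 6.61% in phrenic minus LMC radial and 3.76% in LMC radial minus C3-C5 GFP-only.

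The calls changed without phrenic replicate 4, where 2.75% of all probe sets passed in phrenic minus C3-C5 GFP-only and 5.89% in LMC radial minus C3-C5 GFP-only. Reln was then lower in phrenic than in C3-C5 GFP-only arrays by 1.74 on the log2 scale (limma adjusted p = 0.000671) and lower in LMC radial than in C3-C5 GFP-only arrays (-1.56, adjusted p = 0.00156). C3-C5 GFP-only arrays exceeded the mean of the other types by 1.65 (adjusted p = 0.000852), against 1.42 ± 0.34 (SE, adjusted p = 0.0819) with all arrays. Phrenic replicate 4 was the outlying phrenic array on this same probe set, 1449465_at, so its removal lowered the spread that these p-values use. The LMC radial minus C3-C5 GFP-only difference did not change, and its SE went from 0.41 to 0.18. In phrenic replicate 4 a list of 6 genes of Cajal-Retzius-like and other reelin-rich cells had a mean of 6.35, against 5.06 to 5.59 in the other phrenic arrays, and its progenitor, cell cycle and interneuron means were also the highest of the phrenic arrays. Of that list, 3 of 6 genes lay below 5 on every array, Trp73, Calb2 and Barhl1. Ebf2 and Ebf3, also in the list, had their highest group means in C3-C5 GFP-only arrays, at 7.92 ± 0.09 and 10.91 ± 0.06 (SD, n = 4). Barhl2, the sixth gene, had its lowest group mean there, 6.33 ± 0.31 (SD, n = 4), against 6.89 ± 0.88 (SD, n = 4) in phrenic and 6.88 ± 0.25 (SD, n = 3) in LMC radial arrays. Of the 14 interneuron genes measured, 7 lay below 5 on every array. The part of these cells in the Reln values was not tested. The other Reln probe set, 1458020_at, read 2.64 to 3.10 on all 11 arrays, below the array medians, and shows no level of Reln.

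**Figure D2:**
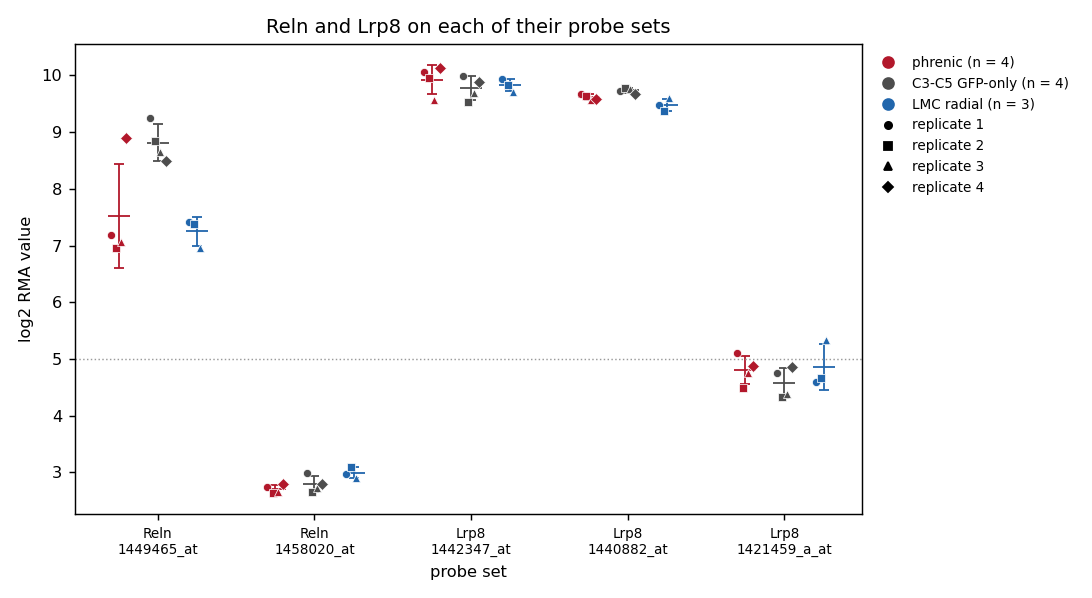
Log2 RMA value (vertical axis) of each array on the 2 Reln and 3 Lrp8 probe sets (horizontal axis), with the mean ± SD, and 5 as a dotted line. On Reln 1449465_at the C3-C5 GFP-only arrays lie at 8.50 to 9.25, and phrenic replicate 4 lies among them at 8.90. The Lrp8 groups lie close together.

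The receptors showed no difference that passed. Over the 9 probe sets of Vldlr and Lrp8, limma passed 0 of 27 pairwise tests (3 at an unadjusted p under 0.05, lowest adjusted p 0.0711), and 0 of 27 tests of a type against the mean of the others (4 unadjusted, lowest adjusted p 0.0547). Over all probe sets, the pairwise shares were 1.96% in phrenic minus C3-C5 GFP-only, 6.61% in phrenic minus LMC radial and 3.76% in LMC radial minus C3-C5 GFP-only. Against the mean of the others, 3.85% passed for phrenic, 0.973% for C3-C5 GFP-only and 7.02% for LMC radial arrays. With shares this low, 0 of 27 does not show that the receptors were equal, and the intervals set the limit. On the brightest Vldlr probe set, 1434465_x_at, the phrenic arrays read 10.002, 9.63, 9.47 and 10.25, the C3-C5 GFP-only arrays 9.79, 9.70, 9.63 and 9.78, and the LMC radial arrays 9.54, 9.93 and 9.35. The groups overlapped. The phrenic minus C3-C5 GFP-only difference was 0.11 (95% interval -0.28 to 0.51), phrenic minus LMC radial 0.23 (-0.19 to 0.66) and LMC radial minus C3-C5 GFP-only -0.12 (-0.54 to 0.31).

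The largest Vldlr difference was on a dim probe set, 1417900_a_at. It read 5.78, 5.65, 5.72 and 6.07 in phrenic arrays, 5.22, 6.07, 6.14 and 5.25 in C3-C5 GFP-only arrays, and 3.93, 5.48 and 4.48 in LMC radial arrays. LMC radial arrays lay below all phrenic arrays, and the difference of 1.18 ± 0.35 (SE) did not pass (limma adjusted p = 0.0711). Against C3-C5 GFP-only arrays LMC radial read -1.04 ± 0.35 (SE, adjusted p = 0.126). Without LMC radial replicate 2, 2 of the 27 pairwise receptor tests passed. The share of all probe sets that passed without that array is not given here. Of the other Vldlr probe sets, 1442169_at had means of 7.81 in phrenic, 8.18 in GFP-only and 8.23 in radial arrays, 1435893_at 7.59, 7.99 and 7.63, 1451156_s_at 6.89, 6.96 and 6.82, and 1438258_at 6.25, 6.05 and 6.05. These 4 probe sets ordered the types differently, and each type overlapped the others.

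**Figure D3:**
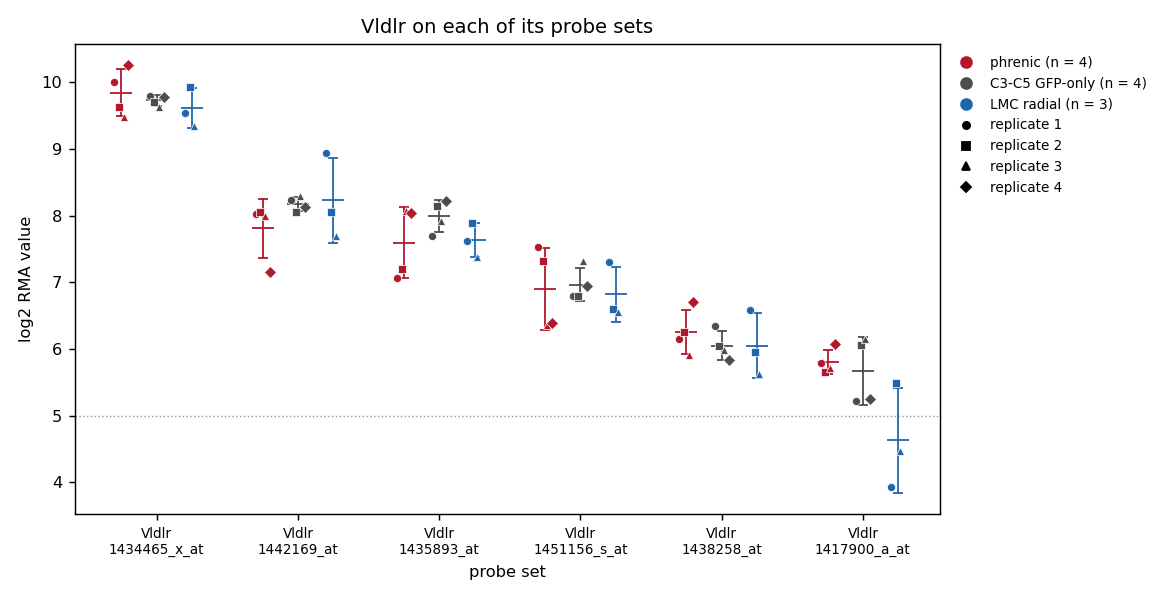
Log2 RMA value (vertical axis) of each array on the 6 Vldlr probe sets (horizontal axis), with the mean ± SD, and 5 as a dotted line. The groups overlap on 5 of the probe sets in every comparison; on 1417900_a_at the LMC radial arrays lie at 3.93 to 5.48, below the phrenic arrays at 5.65 to 6.07.

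Lrp8, the other receptor, read 10.06, 9.96, 9.57 and 10.12 in phrenic arrays on 1442347_at, 9.996, 9.53, 9.69 and 9.88 in C3-C5 GFP-only arrays, and 9.94, 9.83 and 9.72 in LMC radial arrays. The groups overlapped, and the differences were 0.15 (95% interval -0.17 to 0.48) for phrenic minus C3-C5 GFP-only, 0.10 (-0.25 to 0.45) for phrenic minus LMC radial and 0.05 (-0.30 to 0.40) for LMC radial minus C3-C5 GFP-only. On 1440882_at the LMC radial arrays (9.48, 9.38 and 9.59) lay below the C3-C5 GFP-only arrays (9.73, 9.77, 9.76 and 9.68), and the difference of -0.25 ± 0.09 (SE) did not pass (limma adjusted p = 0.170). The third probe set, 1421459_a_at, had group means of 4.81, 4.58 and 4.86, close to the array medians.

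**Figure D4:**
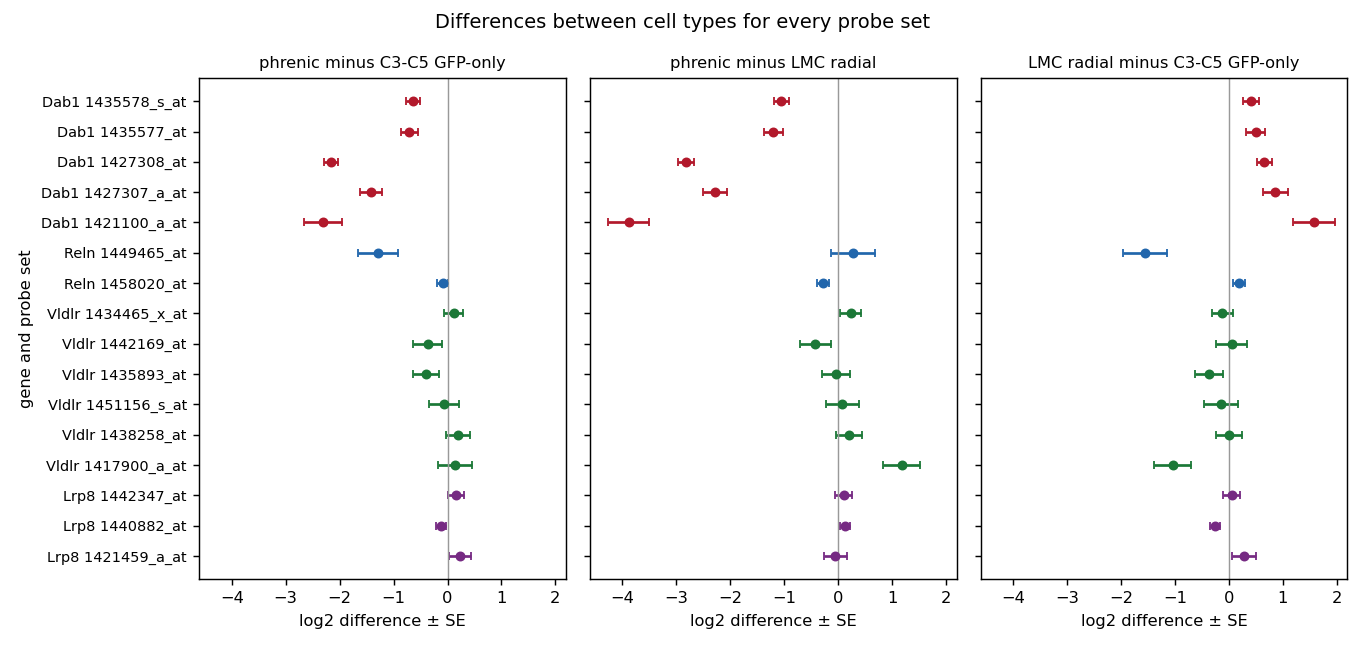
Log2 difference ± SE (horizontal axis) of each of the 16 probe sets (vertical axis) in the 3 pairwise comparisons. Dab1 lies below 0 in both comparisons with phrenic arrays and above 0 in LMC radial minus C3-C5 GFP-only; Vldlr and Lrp8 lie near 0 except Vldlr 1417900_a_at.

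Foxp1, Lhx1 and Isl1 were read beside Dab1 whatever their values. Foxp1 was lower in phrenic than in C3-C5 GFP-only arrays (-0.89 ± 0.13 SE, limma adjusted p = 0.00535) and than in LMC radial arrays (-1.22 ± 0.14 SE, adjusted p = 0.000541), and its LMC radial minus C3-C5 GFP-only difference of 0.32 ± 0.14 (SE) did not pass (adjusted p = 0.229, and 0.0474 with array weights). Lhx1 was lower in phrenic than in LMC radial arrays (-2.91 ± 0.41 SE, adjusted p = 0.00193). Its phrenic minus C3-C5 GFP-only difference was -1.66 ± 0.38 (SE, adjusted p = 0.0535), with 0.0381 when the replicate number was a block and 0.00317 without phrenic replicate 4. It also passed with the filter on dim probe sets (0.0341), the trended robust prior (0.0246), array weights (0.00452) and the 4 lower arrays (0.0239). LMC radial minus C3-C5 GFP-only was 1.25 ± 0.41 (SE, adjusted p = 0.121). It passed without phrenic replicate 4 (0.0288), with the replicate block (0.047), with array weights (0.0115) and with arrays of the 2 types only (0.00154). Arrays of these 2 types with the same number did not deviate together, so the block has little basis here. Isl1 was lower in LMC radial than in phrenic arrays (phrenic minus LMC radial 2.69 ± 0.45 SE, adjusted p = 0.00521) and than in C3-C5 GFP-only arrays (-2.36 ± 0.45 SE, adjusted p = 0.0177). The latter did not pass without C3-C5 GFP-only replicate 2 or 3 (0.0545 and 0.0602) or LMC radial replicate 2 (0.058), nor with the floor at 5 (0.101), the Actb covariate (0.0691) or the 7 higher arrays (0.288). In those 7 arrays the phrenic minus LMC radial difference of Isl1 did not pass either (0.116), and the Foxp1 phrenic minus C3-C5 GFP-only difference passed in neither array set (0.141 in the higher and 0.0949 in the lower arrays).

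Over the 11 arrays and 18192 other genes, Foxp1 had the highest Pearson correlation with Dab1 1435578_s_at (r = 0.985) and Lhx1 the fourth highest (0.972). Between them came Zfp503 (0.978) and Lhx1os (0.978), a transcript next to Lhx1, and Ephx2 followed (0.970). The lowest were Cdh9 (-0.984), a cadherin, Agtr2 (-0.980) and Psd3 (-0.977). On 1435577_at, 1427308_at, 1427307_a_at and 1421100_a_at Foxp1 ranked 3, 16, 40 and 123 (r = 0.977, 0.959, 0.920 and 0.862). Lhx1 ranked 1, 96, 33 and 139 on these (r = 0.987, 0.890, 0.929 and 0.854). The points share the 3 cell types, and any gene with the same order of types scores high. With the type means removed, Foxp1 remained at 0.946 and 0.962 on 1435578_s_at and 1435577_at, but read 0.20, 0.086 and -0.513 on 1427308_at, 1427307_a_at and 1421100_a_at. Lhx1 read 0.823, 0.921, 0.127, 0.481 and -0.136 on the same probe sets. The probe sets thus disagreed within types, from close likeness to Foxp1 on 1435578_s_at and 1435577_at to the opposite sign on 1421100_a_at. Without phrenic replicate 4 the Foxp1 values, in the same order of probe sets, were 0.848, 0.915, -0.146, 0.039 and -0.540. The Lhx1 values were then 0.518, 0.806, -0.247, 0.659 and 0.082. Isl1 correlated with Dab1 at -0.772 to -0.679 over the 5 probe sets. With the type means removed it read 0.034, 0.131, -0.52, 0.262 and -0.356, in the same order of probe sets. The negative correlation thus did not hold within types on every probe set.

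**Figure D5:**
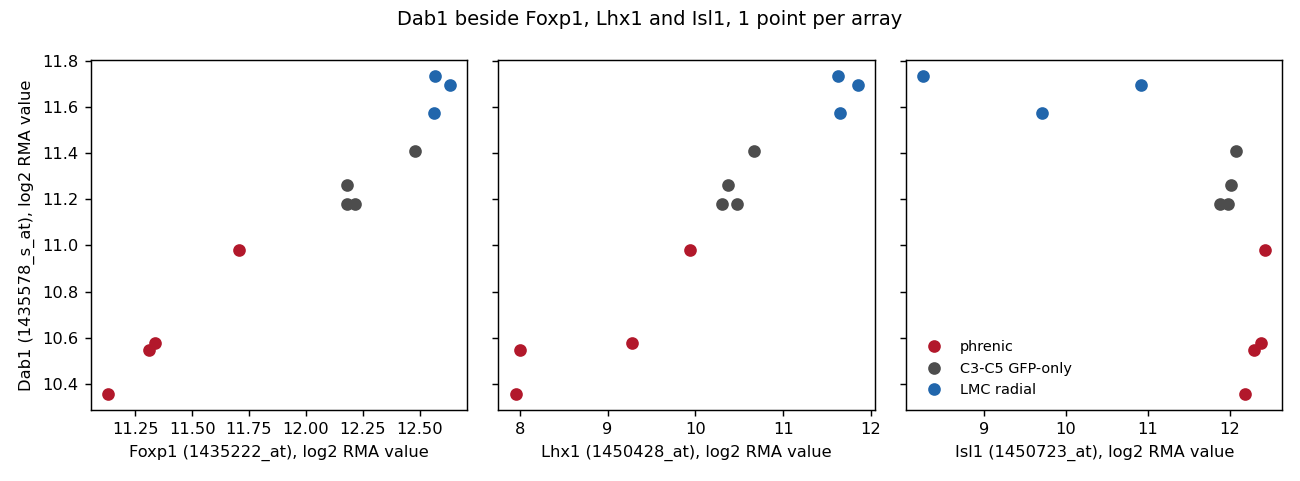
Dab1 1435578_s_at log2 RMA value (vertical axis) against Foxp1, Lhx1 and Isl1 (horizontal axes, log2 RMA value), 1 point per array, coloured by cell type. Dab1 is higher where Foxp1 and Lhx1 are higher (r = 0.985 and 0.972), and phrenic and C3-C5 GFP-only arrays differ in Dab1 while sharing high Isl1.

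The genes most like the other members were Tbx3 (0.948), Cnpy1 (0.945) and Rmst (0.942) for Reln, Spon1 (0.944), Acss1 (0.894) and Nr4a2 (0.888) for Vldlr, and Fem1b (0.946), Prdm4 (0.923) and Rnf216 (0.898) for Lrp8, over the same 11 arrays. Spon1 encodes F-spondin, an extracellular ligand of Lrp8. Pairs of Dab1 probe sets correlated at 0.838 to 0.991, and Dab1 1435578_s_at with Reln 1449465_at at 0.181.

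The rest of the pathway was read from 7 lists chosen by role, 88 of 94 genes measured, each by its brightest probe set. Of 88 genes, 5 passed in phrenic minus C3-C5 GFP-only (4 higher, 1 lower, 5.68%), against 2.74% of all genes (1.43% higher, 1.31% lower). In phrenic minus LMC radial 6 passed (4 higher, 2 lower, 6.82% against 6.88%, of which 3.88% higher and 3.00% lower), and in LMC radial minus C3-C5 GFP-only 3 (2 higher, 1 lower, 3.41% against 3.73%, of which 1.70% higher and 2.03% lower), both near the background. The median differences of the lists were 0.006, -0.010 and -0.021, beside 0.007, -0.005 and 0.006 over all genes, each by its brightest probe set.

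Outside the cell, 1 of 12 ligand, co-receptor and protease genes passed, Adamts3, a protease that cleaves and inactivates reelin. Its phrenic arrays read 8.79, 8.39, 8.79 and 8.27, its C3-C5 GFP-only arrays 6.41, 6.91, 6.82 and 6.91, and its LMC radial arrays 6.39, 6.13 and 4.98. Phrenic arrays lay above all others. The difference was 1.80 ± 0.28 (SE, limma adjusted p = 0.0069) from C3-C5 GFP-only and 2.73 ± 0.30 (SE, adjusted p = 0.000375) from LMC radial arrays, and both passed with any 1 array left out. The former did not pass within the higher (0.201) or the lower arrays (0.0642). The related protease Adamts5 (-1.11 in phrenic minus C3-C5 GFP-only, adjusted p = 0.101) had group means under 5, and the ephrins Efnb1 (0.77 in LMC radial minus C3-C5 GFP-only, adjusted p = 0.0776) and Efnb3 (-0.56 in phrenic minus LMC radial, adjusted p = 0.0829) did not pass with all arrays. Efnb1 passed without phrenic replicate 4 (0.0297) and Efnb3 without C3-C5 GFP-only replicate 1 (0.0383). Of 7 related lipoprotein receptors 0 passed in limma in any comparison, Lrp1 (-0.66 in LMC radial minus C3-C5 GFP-only, adjusted p = 0.215), Lrp1b and Sorl1 having the smallest unadjusted p.

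Among 8 receptor traffic genes, Apba1, an adaptor that binds receptor tails, and Dab2, an endocytic relative of Dab1, passed. Apba1 was higher in phrenic than in LMC radial arrays by 1.01 ± 0.12 (SE, limma adjusted p = 0.000822). Its phrenic minus C3-C5 GFP-only difference of 0.52 (adjusted p = 0.0455, 0.0781 with the replicate block) did not pass when any array other than phrenic replicate 4 was left out (0.0568 to 0.142), nor with the floor at 5 (0.0531), the Actb covariate (0.0577), arrays of the 2 types only (0.0904) or either array set (0.440 and 0.187). Dab2 read 6.71, 5.99, 6.82 and 6.26 in phrenic arrays, 5.28, 5.45, 5.06 and 5.37 in C3-C5 GFP-only arrays, and 6.58, 6.43 and 6.11 in LMC radial arrays. It was higher than in C3-C5 GFP-only arrays by 1.15 ± 0.19 (SE, adjusted p = 0.00976) in phrenic and 1.08 ± 0.20 (SE, adjusted p = 0.0167) in LMC radial arrays. The LMC radial call was lost without C3-C5 GFP-only replicate 3, LMC radial replicate 1 or LMC radial replicate 2 (adjusted p 0.0627, 0.071 and 0.0623), and also with the floor at 5 (0.0751), with the Actb covariate (0.0781) and among the 7 higher arrays (0.142). The phrenic call was lost in either array set (0.109 and 0.293). Lrpap1, a chaperone of these receptors, read 0.57 in phrenic minus LMC radial (adjusted p = 0.0811, and 0.0193 without phrenic replicate 1), and Mylip, a ligase that degrades them, -0.85 (adjusted p = 0.172). Dab2ip did not pass.

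Of 17 kinases and adaptors of Dab1, 1 passed: Rap1gap, which inactivates the GTPase Rap1, was higher in phrenic than in LMC radial arrays by 0.92 ± 0.23 (SE, limma adjusted p = 0.036). This call was lost without phrenic replicate 2, C3-C5 GFP-only replicate 1 or 3, or any LMC radial array (0.0522 to 0.107), with quantile normalization (0.102), with the floor at 5 (0.123), with arrays of the 2 types only (0.101) and among the 7 higher arrays (0.152), and with the Actb covariate the difference was 0.49 (adjusted p = 0.272). The regulatory subunit Pik3r1 (-0.69 in phrenic minus C3-C5 GFP-only, adjusted p = 0.233) and the adaptor Crkl (-0.40, adjusted p = 0.236) did not pass.

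Of 13 Dab1 turnover genes, Socs2 and Socs5 passed. Socs2, a member of the Socs family of ubiquitin ligase adaptors, read 10.06, 10.10, 10.11 and 10.09 in phrenic arrays, 10.62, 10.72, 10.66 and 10.45 in C3-C5 GFP-only arrays, and 11.06, 11.05 and 11.28 in LMC radial arrays. The 3 types did not overlap, in the same order as Dab1. Phrenic minus LMC radial was -1.04 ± 0.10 (SE, limma adjusted p = 0.000206), phrenic minus C3-C5 GFP-only -0.53 ± 0.10 (SE, adjusted p = 0.0191) and LMC radial minus C3-C5 GFP-only 0.52 ± 0.10 (SE, adjusted p = 0.0237). The phrenic minus C3-C5 GFP-only call was lost without phrenic replicate 1 or C3-C5 GFP-only replicate 1, 2 or 3 (0.0514 to 0.07), and the LMC radial minus C3-C5 GFP-only call without C3-C5 GFP-only replicate 3 or 4 or any LMC radial array (0.0519 to 0.0845). Both were lost among the 7 higher arrays (0.305 and 0.204), and the former in the 4 lower arrays (0.171). Socs5 was lower in phrenic than in LMC radial arrays (-0.62, adjusted p = 0.0469), a call lost without any array except phrenic replicate 3 (0.0583 to 0.143), and with the replicate block, the floor at 5, the Actb covariate, arrays of the 2 types only or the 7 higher arrays (0.0734, 0.117, 0.177, 0.140 and 0.111). Socs3 and Ube2f did not pass.

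None of 21 cytoskeletal effectors passed in limma in any comparison, Pafah1b3 (-0.44 in phrenic minus C3-C5 GFP-only, unadjusted p = 0.00612, adjusted p = 0.138, and 0.0286 without phrenic replicate 2), Stk24 and Cdk5r2 having the smallest unadjusted p. Of 10 adhesion effectors 2 passed. Nectin3, a cell adhesion molecule of the reelin-controlled pathway in migrating neurons, read 8.52, 8.07, 7.90 and 8.77 in phrenic arrays, 7.28, 7.89, 7.87 and 7.86 in C3-C5 GFP-only arrays, and 5.06, 5.57 and 5.92 in LMC radial arrays. It was lower in LMC radial arrays than in phrenic arrays (phrenic minus LMC radial 2.80 ± 0.26 SE, adjusted p = 0.000117) and than in C3-C5 GFP-only arrays (-2.21 ± 0.26 SE, adjusted p = 0.00155), with any 1 array left out as well, though the latter did not pass among the 7 higher arrays (0.0707). Fn1, the fibronectin gene, was higher in phrenic than in C3-C5 GFP-only arrays by 1.49 ± 0.26 (SE, adjusted p = 0.0148), a call lost without C3-C5 GFP-only replicate 3 or 4 (0.0545 and 0.0532), with the floor at 5 (0.058) and within the higher or the lower arrays (0.129 and 0.278). Fn1 is also one of 14 mesenchyme and cartilage markers, whose mean was 5.46 to 7.09 in phrenic, 4.78 to 5.13 in C3-C5 GFP-only and 5.33 to 6.31 in LMC radial arrays, with 2 of 14 below 5 on every array. The part of mesenchymal cells in the Fn1, Dab2 and Adamts3 differences was not tested. Itga5, Afdn and Nectin1 did not pass.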

How the data were processed

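RNA of 11 sorted motor neuron samples was measured, 1 Affymetrix array each. The deposited values are log2 values per probe set that the authors made with RMA (background correction, quantile normalization and median polish), per the submitters' processing notes; the version is not given in the sources used here. Of 45101 probe sets, 64 controls were left out and 45037 tested, without a filter; 34945 had 1 gene symbol in the platform annotation. Groups follow the sample titles. A mean per cell type was fitted in limma 3.58.1 (R 4.3.3; 8 residual and 2.92 prior degrees of freedom). Two-sided p-values were adjusted by Benjamini-Hochberg over all tested probe sets of a comparison; below 0.05 after adjustment passes. The fit was tested on simulated data. The number of arrays limits the precision.

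The members and lists were chosen with earlier results of these data known. Text names all member probe sets, list genes that passed with a log2 difference of at least 1 and up to 3 further genes a list with the smallest p, Foxp1, Lhx1 and Isl1, and the genes most like each member. A gene of a list stands on its probe set with the highest mean. Same-numbered phrenic and C3-C5 GFP-only arrays deviated together (r = 0.125, 0.183, 0.224 and 0.177), which meets the rule set for pairing, but each phrenic array deviated more closely with a C3-C5 GFP-only array of another number (0.186, 0.269, 0.280 and 0.179), one of its own 25th percentile set, so the number is not the closest pairing; LMC radial arrays did not (-0.083 to 0.050). Alternatives were quantile normalization, centring, a filter and a floor at 5, a trended robust prior, array weights, the replicate block, fits of 2 types, array sets by 25th percentile, an Actb 3′ minus 5′ covariate, other probe sets, and leaving out each array. Promoter windows come from RefSeq (GRCm38.p6).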

Additional observations from a re-analysis of the deposited data

Results flagged for a closer look

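Within the groups of 4 arrays, the highest or lowest array was set apart from the others by Dixon's criterion (gap over range) in 6 of 92 groups tested, and chance alone gives about 1 in 20. Of the 6, 3 fell on phrenic replicate 4. Its Reln 1449465_at value of 8.90 lay above the other phrenic arrays (6.95 to 7.18), its Vldlr 1442169_at value of 7.15 below them (7.99 to 8.06), and its Sorl1 1453003_at value of 9.40 below them (highest 10.12, nearest 10.01). C3-C5 GFP-only replicate 4 was the highest of its group for Dab1 1435577_at, at 10.68 where the other 3 share 10.43, and for Foxp1 1435222_at, at 12.48 against 12.18 to 12.21. C3-C5 GFP-only replicate 1 was the lowest for Nectin3 1448673_at, at 7.28 against 7.86 to 7.89.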

How the results depend on the processing

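The order of the 3 types on Dab1 1435578_s_at held in every setting tried. Array sets by 25th percentile are called the higher arrays (7) and the lower arrays (the other 4). With the replicate number as a block, Dab1 1435578_s_at was higher in LMC radial than in C3-C5 GFP-only arrays by 0.50 (adjusted p = 0.045), and with array weights by 0.41 (0.0285). LMC radial and C3-C5 GFP-only arrays of the same number did not deviate together, so the block has little basis between them. The block also gave calls on Dab1 1427307_a_at (0.0372), Dab1 1435577_at (0.0392) and Lhx1 LMC radial minus C3-C5 GFP-only (0.047), and lost those on Dab1 1421100_a_at (0.0748) and Socs5 (0.0734); beside these and the values in the report it changed no call of a named gene. Other Dab1 probe sets gave 0.66 and 1.58 there, -2.16, -1.42 and -2.31 in phrenic minus C3-C5 GFP-only, and -2.82, -2.29 and -3.89 in phrenic minus LMC radial. With 1 array left out the 1435578_s_at differences ran from 0.38 to 0.46, -0.77 to -0.56 and -1.18 to -0.97. The number of Dab1 probe sets that passed was 1 without dim probe sets or with the floor, 5 with array weights, 4 with the block or 2 types only, and 0 among the higher arrays or with the Actb covariate. It was 0 to 3 with 1 array left out. The shares of all probe sets that passed with array weights, the block or 2 types are not given here.

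Reln passed with array weights (phrenic minus C3-C5 GFP-only -1.51, LMC radial minus C3-C5 GFP-only -1.49, C3-C5 GFP-only minus the others 1.504), with the trended prior and with 2 types only (both -1.56), and in the lower arrays (-1.74); phrenic minus LMC radial became -0.022 with array weights. With 1 array left out the ranges were -1.74 to -1.10, -1.66 to -1.41, 1.28 to 1.65 and -0.19 to 0.46. Probe set 1458020_at gave -0.056, 0.20 and -0.28. Small receptor differences changed sign: Lrp8 LMC radial minus C3-C5 GFP-only to -0.11 among the higher arrays and -0.11 with the Actb covariate, and on other probe sets to -0.25, -0.12 and -0.052; Vldlr to -0.11 in the lower arrays and to 0.052, -0.37, -0.40, -0.066, -0.42 and -0.038 on other probe sets. With 1 array left out Lrp8 ran from -0.030 to 0.13, 0.069 to 0.27 and 0.034 to 0.22, and Vldlr from -0.28 to 0.011, -0.023 to 0.24 and 0.095 to 0.40. Receptor tests that passed were 2 with array weights and 0 to 2 with 1 array left out. The share of all probe sets that passed with array weights is not given here.

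Pathway genes higher in LMC radial minus C3-C5 GFP-only (2) became 1 with the floor or the covariate, 5 with array weights, 4 with 2 types and 0 among the higher arrays; lower (1) became 6, 4, 0 and, by any probe set, 2. In phrenic minus C3-C5 GFP-only, higher (4) became 2 with the floor and 0 in either array set, and lower (1) became 0 in either. In phrenic minus LMC radial, higher (4) became 7 by any probe set, and lower (2) became 1 with the floor, the block, 2 types or the higher arrays. With 1 array left out these counts ran 0 to 4, 1 to 3, 2 to 4, 0 to 2, 3 to 7 and 1 to 2. The shares of all genes that passed in these settings are not given here, so the counts have no background beside them. The cause of the changed counts was not tested. The array sets hold fewer arrays than the full fit, and the part of array number was not tested either.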
